A study of Homo sapiens with 4 samples.

Results

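Crosslink sites of PDCD4 were examined in the transcripts of 10 heterogeneous nuclear ribonucleoprotein (hnRNP) genes, HNRNPA1, HNRNPA2B1, HNRNPC, HNRNPD, HNRNPF, HNRNPH1, HNRNPK, HNRNPL, HNRNPM and HNRNPU. A site was counted for one of these genes when its symbol stood in the gene label of the site, whatever its score. The PDCD4 list held 461 such sites of 158922 and the IgG list 229 of 111361, and all 10 genes, of 14387 genes with a site, had sites in both lists. The samples were MCF10A cells, an established non-transformed line of breast epithelial cells, of genotype WT and without further treatment. The assay, iCLIP, joins protein to RNA in living cells with UV light, pulls the protein down with an antibody and copies the attached RNA into cDNAs, whose ends mark the cross-linked nucleotides. PDCD4 antibody was used for 2 replicates and control IgG for 2 replicates, and for each antibody 1 list of sites was analysed, in which the replicates are merged. The score of a site is the number of cDNAs counted there, and the authors kept sites below a false discovery rate, so a region without a listed site is not shown to be without cDNAs. With 1 list per antibody there is no spread between replicates and no test, and all intervals are 95% intervals that cover counting error only.

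hnRNPs coat nascent pre-mRNA in the nucleus and take part in splicing, export, stability and translation of mRNAs. Most bind RNA through RNA-recognition or KH domains, whereas HNRNPU binds through a stretch rich in arginine and glycine. HNRNPA1, HNRNPA2B1 and HNRNPC encode proteins of the core hnRNP particle. Many hnRNP genes adjust their own output through introns that are retained or exons that bring in a premature stop codon, so that one stretch can be coding in one transcript and untranslated in another. PDCD4 is a tumour suppressor and RNA-binding protein known as an inhibitor of the helicase eIF4A.

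The nucleotides with the most cDNAs are shown first, because they place the strongest signals of these genes. Each line gives 30 nt of the transcript strand, 5′ to 3′ in DNA letters, read from the GRCh38 genome, with the cross-linked nucleotide as the capital. These are all 11 sites with a score greater than 5, of which 10 were in the PDCD4 list and 1, in HNRNPC, in the IgG list.

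HNRNPU coding sequence, exon 12, score 10, chr1:244855490-244855519, minus strand: taccctcgtgcccctGtttttcctggccgt
HNRNPU coding sequence, exon 1, score 7, chr1:244863867-244863896, minus strand: ttccaggaaggggaaGatgagctcggggac
HNRNPU coding sequence, exon 1, score 6, chr1:244863906-244863935, minus strand: gaggccgcctcggaaGacgagaacggcgac
HNRNPU coding sequence, exon 2, score 6, chr1:244862679-244862708, minus strand: aggcggagataaaaaGaggggtgttaaaag
HNRNPU end of intron 3, score 6, chr1:244860461-244860490, minus strand: tttgatataattacaGataattgtgatcta
HNRNPD coding sequence, exon 1, score 7, chr4:82373640-82373669, minus strand: gagcagttcggcgggGacggggcggcggca
HNRNPD coding sequence, exon 1, score 6, chr4:82373650-82373679, minus strand: tatgtcggaggagcaGttcggcggggacgg
HNRNPD 3′UTR, exon 9, score 7, chr4:82353927-82353956, minus strand: aatcaatttgtgtttTatgccctttccccc
HNRNPK coding sequence, exon 16, score 6, chr9:83970266-83970295, minus strand: attaaacaaatccgtCatgagtcgggagct
HNRNPL 3′UTR, exon 13, score 6, chr19:38836591-38836620, minus strand: tttttttttttttttTttttttaaatgcta
HNRNPC intron 1 (IgG list), score 6, chr14:21267570-21267599, minus strand: gaaaagttgaagaagGatggccaggttgca

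Exon and intron numbers are those of the canonical transcript of GENCODE 44. Of the 10 PDCD4 sites, 8 were counted as coding and 2 lay in a 3′UTR, and the cross-linked nucleotide was G at 7, T at 2 and C at 1. The HNRNPU site at the end of intron 3 is the last nucleotide of that intron and is coding in another annotated transcript of the gene. The IgG site in HNRNPC was intronic. The 30 nt that follow the HNRNPK site also occur in HNRNPKP4, a processed copy of HNRNPK, so its cDNAs could stem from either copy, whereas the corresponding 30 nt of the other 10 sites occur once in the genome.

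Summed over the 10 genes, 1195 PDCD4 cDNAs were counted, 0.292% of the 409308 cDNAs in the list. The IgG list held 607, which is 0.220% of 276139. On the log2 scale the share was 0.41 higher in the PDCD4 list (0.27 to 0.55). Most of this came from 1 gene: without HNRNPU, 817 PDCD4 and 525 IgG cDNAs remained and the log2 ratio was 0.069 (-0.09 to 0.23). The ratio is taken between shares of the list totals, with 1 cDNA added to each count, and is positive where the share was larger with PDCD4 antibody. According to the methods, positions cross-linked with IgG were subtracted on the PDCD4 side before peak calling. This step can lower PDCD4 counts where IgG has sites, so the 2 lists are not treated alike. Its effect on the ratios, in whole genes or in regions, was not tested.

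Among the 10 genes, 8 had a log2 ratio above 0, where 46.8% of all 9585 genes with at least 10 cDNAs over both lists had one. The count was 6 of 10 without sites at sequence that occurs elsewhere in the genome, and 6 of the 9 genes left without sites of several gene labels. HNRNPU alone reached a log2 ratio of 1 or more (18.8% of all genes tested), and 0 of the 10 fell to -1 or less (18.1% of all genes). The median log2 ratio was 0.21, beside -0.08 over all genes tested. The counting interval lay above 0 for HNRNPU, HNRNPD and HNRNPM and below 0 for HNRNPC, and the intervals of the other 6 genes held 0. Of these 4 calls, that of HNRNPU held under each alternative tried. The interval of HNRNPM held 0 with scores of at least 2 (-0.12 to 1.03), by number of sites (-0.17 to 1.60) and without repeated sequence (-0.0028 to 1.13). By number of sites, the intervals of HNRNPD (-0.21 to 1.57) and HNRNPC (-0.92 to 0.35) held 0 too. Over all genes tested, intervals apart from 0 were not counted. Intervals lay above 0 for 6 and below 0 for 3 of 16 other hnRNP genes. For 13 genes of SR proteins, another class of splicing regulators, they lay above 0 for 2 and below 0 for 3. In the counts of a single list, more RNA of a gene and more contacts per RNA molecule cannot be told apart. How the RNA level bears on the ratio between the lists was not tested, and RNA levels were not analysed here.

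**Figure D1:**
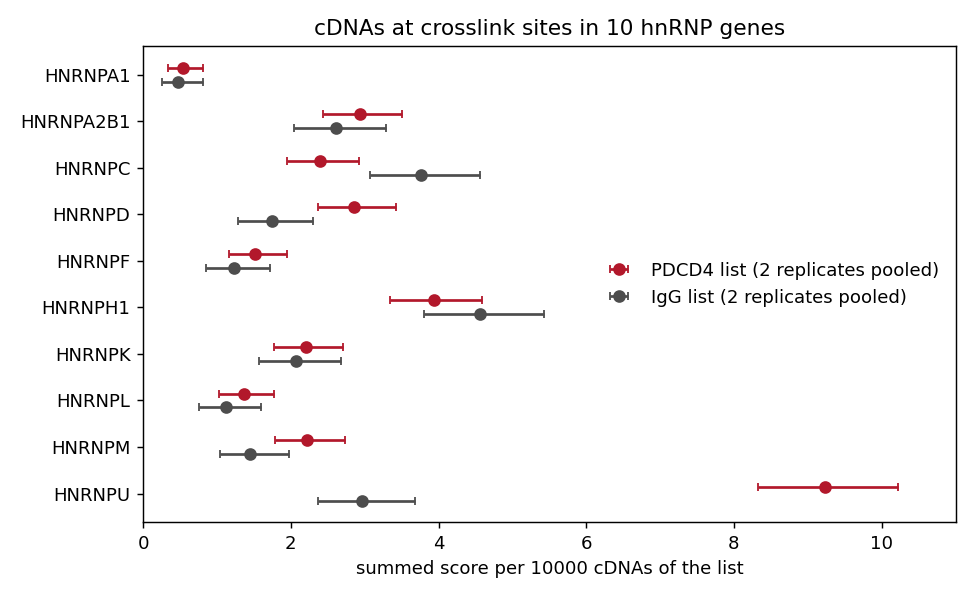
Summed score per 10000 cDNAs of the list (x axis) for each of the 10 hnRNP genes in the PDCD4 list (red) and the IgG list (grey); bars are 95% Poisson intervals, counting error only. HNRNPU stood apart in the PDCD4 list, at 9.24, whereas its IgG value of 2.97 lay among those of the other genes.

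**Figure D2:**
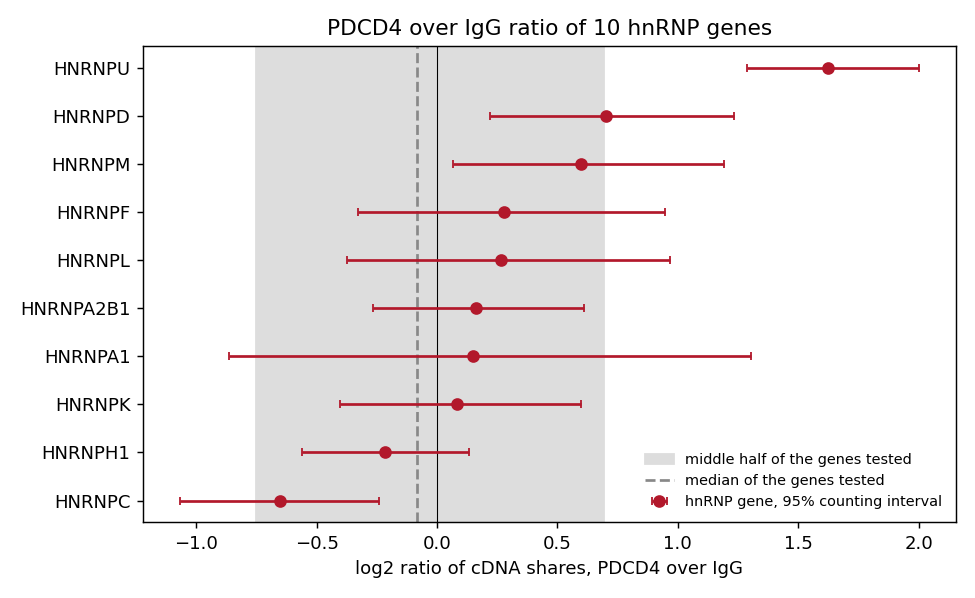
Log2 ratio of cDNA shares, PDCD4 over IgG (x axis), for the 10 hnRNP genes in order of their ratio, with 95% counting intervals; the grey band runs from the lower quartile (-0.75) to the upper quartile (0.70) of the 9585 genes tested and the dashed line is their median. HNRNPU at 1.62 was the gene clearly outside the band, HNRNPD at 0.70 sat at its upper edge, and HNRNPC at -0.65 was the lowest.

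HNRNPU, a large nuclear protein that binds RNA and scaffold-attached chromatin, lies on chromosome 1 from 244840638 to 244864560 on the minus strand (ENSG00000153187). It held 378 PDCD4 cDNAs at 137 sites and 82 IgG cDNAs at 29 sites. This corresponded to 9.24 per 10000 cDNAs (8.33 to 10.2) in the PDCD4 list and 2.97 (2.36 to 3.69) in the IgG list, a 3.08-fold difference or 1.62 on the log2 scale (1.29 to 1.9995). The ratio was higher than in 90.2% of the genes tested. HNRNPU gave 31.6% of the PDCD4 cDNAs of the 10 genes but 13.5% of the IgG cDNAs. Per exon length, its PDCD4 density was the highest of the 10 genes, at 16.5 exonic cDNAs per kb, although HNRNPD (15.4), HNRNPH1 (13.5), HNRNPM (13.4), HNRNPK (13.2) and HNRNPF (13.1) were close. Exon length here merges all annotated transcripts, 22.5 kb for HNRNPU but 3.27 kb for HNRNPF, so these densities depend on the annotation. Density over canonical exons alone was not computed. In the IgG list the order differed: HNRNPH1 was densest at 10.2 exonic cDNAs per kb, and HNRNPU had 3.64.

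With coding sequence read before UTRs, the excess in HNRNPU lay mainly in its coding sequence. There, 195 PDCD4 cDNAs stood against 15 IgG cDNAs, a log2 ratio of 3.05 (2.38 to 3.998), so that 51.6% of the PDCD4 cDNAs (46.4 to 56.7) but 18.3% of the IgG cDNAs (10.6 to 28.4) were coding. Its 3′UTR held 93 and 49 cDNAs, a log2 ratio of 0.34 (-0.16 to 0.89). The 5′UTR, taken over all transcripts, held 55 and 18 cDNAs and noncoding exons 28 and 0. With UTRs read first, the coding PDCD4 share of the 10 genes together fell from 35.6% to 13.4%. That order was not computed for HNRNPU alone.

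Along the canonical transcript of HNRNPU, PDCD4 cDNAs were spread over many exons that had no IgG site. The first exon held 62 PDCD4 cDNAs at 19 sites and 3 IgG cDNAs at 1 site. Exon 11 held 30 PDCD4 cDNAs, exon 12 held 32, and neither had an IgG site. In exons 2 to 6 the PDCD4 counts were 6, 12, 15, 9 and 16, again with no IgG site. Exon 7 held 9 cDNAs in each list, and exon 9 held 5 PDCD4 and 3 IgG cDNAs. The last exon, exon 14, which at 4207 nt is by far the longest, held 81 PDCD4 cDNAs and 33 IgG cDNAs. Of the introns, intron 3 had the most, 38 PDCD4 and 18 IgG cDNAs. Few positions of the gene count as purely intronic, because 22.5 kb of its 23.9 kb are annotated as exon of some transcript.

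**Figure D3:**
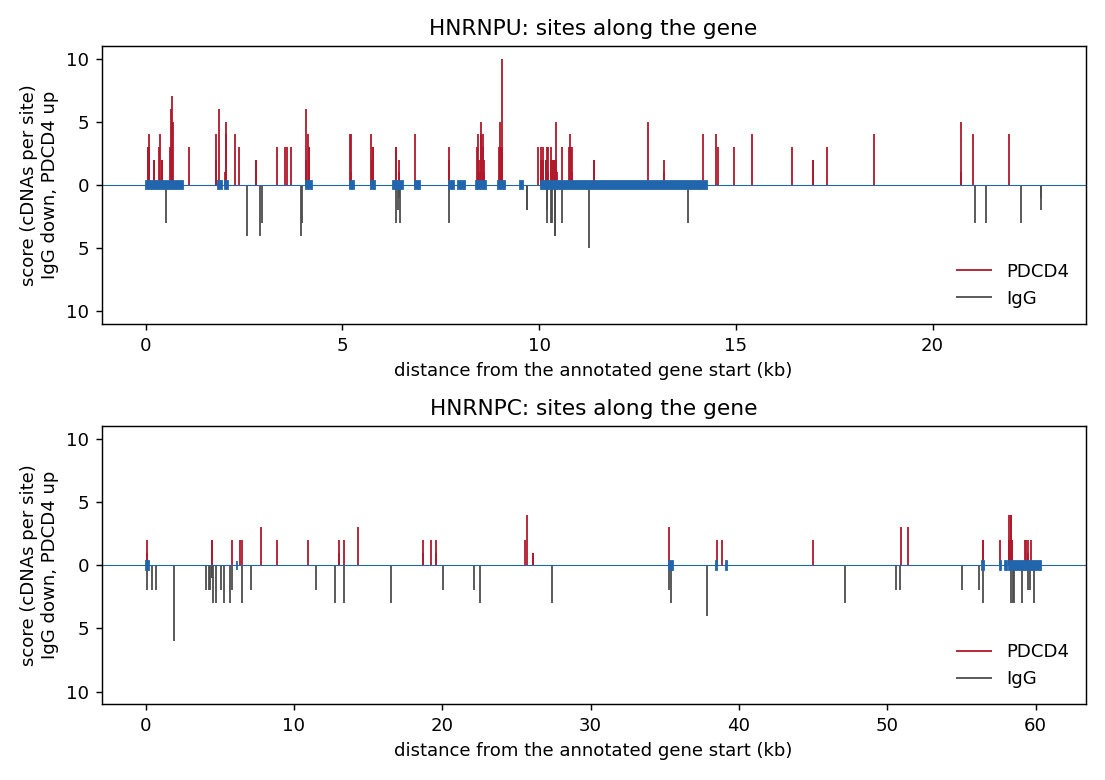
Score of every listed site (y axis, cDNAs per site) against the distance from the annotated gene start in kb (x axis) for HNRNPU (top) and HNRNPC (bottom), with PDCD4 sites drawn upwards, IgG sites downwards and the canonical exons as blue blocks. In HNRNPU most PDCD4 sites lay in exons, from the first to the last, up to the score of 10 in exon 12. Another 16 lay in intron 3 and 13 outside the canonical transcript. In HNRNPC the sites were scattered over introns in both lists, and the IgG list had more of them near the start.

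HNRNPD (also called AUF1) binds AU-rich elements and is known for directing mRNA decay. The gene, on chromosome 4 from 82352498 to 82374503, minus strand (ENSG00000138668), held 117 PDCD4 cDNAs at 38 sites and 48 IgG cDNAs at 17 sites, a log2 ratio of 0.70 (0.22 to 1.23). Its coding sequence had 39 PDCD4 cDNAs and 3 IgG cDNAs, a log2 ratio of 2.75 (1.48 to 5.47), and its 3′UTR 47 and 12 cDNAs, a log2 ratio of 1.32 (0.46 to 2.45). The introns went the other way, with 9 PDCD4 cDNAs and 23 IgG cDNAs, all of them in intron 2, and a log2 ratio of -1.83 (-3.22 to -0.76). The strongest coding sites lay 10 nt apart in exon 1, in the GC-rich stretch shown above, and exon 1 as a whole held 35 PDCD4 and 10 IgG cDNAs.

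HNRNPM, an RRM protein that regulates alternative splicing, lies on chromosome 19 from 8444767 to 8489114, plus strand (ENSG00000099783). It held 91 PDCD4 cDNAs at 39 sites and 40 IgG cDNAs at 17 sites, a log2 ratio of 0.60 (0.07 to 1.19). Its coding sequence held 41 and 13 cDNAs, a log2 ratio of 1.02 (0.16 to 2.11). Exon 14, of 803 nt, contributed 26 PDCD4 cDNAs at 9 sites and had no IgG site. The introns held 16 PDCD4 and 19 IgG cDNAs.

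HNRNPF and HNRNPH1 encode closely related proteins that bind runs of G. HNRNPF (chromosome 10, 43385617 to 43409186, minus strand, ENSG00000169813) held 62 PDCD4 cDNAs at 22 sites and 34 IgG cDNAs at 13 sites, a log2 ratio of 0.28 (-0.33 to 0.95). HNRNPH1 (chromosome 5, 179614178 to 179634784, minus strand, ENSG00000169045) had the most IgG cDNAs of the 10 genes, 126 at 46 sites, beside 161 PDCD4 cDNAs at 64 sites, a log2 ratio of -0.22 (-0.56 to 0.13). In HNRNPH1 the near-even total hid opposite regions. Its coding sequence held 56 PDCD4 and 19 IgG cDNAs, a log2 ratio of 0.94 (0.22 to 1.83), whereas its 3′UTR held 19 and 29, a log2 ratio of -1.15 (-2.09 to -0.29). Noncoding exons of HNRNPH1 held 50 and 49 cDNAs.

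HNRNPK, which binds C-rich RNA through KH domains, lies on chromosome 9 from 83968083 to 83980631, minus strand (ENSG00000165119). It held 90 PDCD4 cDNAs at 31 sites and 57 IgG cDNAs at 20 sites, a log2 ratio of 0.08 (-0.40 to 0.60). All 24 of its coding cDNAs were in the PDCD4 list, 18 of them in exon 11, while its 3′UTR held 48 PDCD4 and 31 IgG cDNAs. HNRNPK also has the most copied exon sequence of the 10 genes: 62.1% of its canonical 30-nt exon windows occur elsewhere in the genome, and 40 of its 90 PDCD4 cDNAs and 10 of its 57 IgG cDNAs lay at such sequence. Without these sites its log2 ratio was -0.48.

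HNRNPL, a regulator of splicing that binds CA-rich RNA, lies on chromosome 19 from 38836370 to 38852347, minus strand (ENSG00000104824). It held 56 PDCD4 cDNAs at 25 sites and 31 IgG cDNAs at 16 sites, a log2 ratio of 0.27 (-0.37 to 0.97). It was the only gene of the 10 whose coding share was lower in the PDCD4 list, with 4 PDCD4 and 10 IgG cDNAs. Its strongest site lay in the run of T shown above, in the last exon, where 30 PDCD4 and 11 IgG cDNAs were counted. Windows with at least 20 T of 30 surrounded 15 of its 25 PDCD4 sites and 7 of its 16 IgG sites. The strongest HNRNPL site of each list also carried the label AC104534.3. Without sites of several gene labels the log2 ratio of HNRNPL was -0.13 (-1.11 to 0.92).

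HNRNPA2B1, HNRNPA1 and HNRNPC belong to the core of the hnRNP particle. HNRNPA2B1 (chromosome 7, 26171151 to 26201529, minus strand, ENSG00000122566) held 120 PDCD4 cDNAs at 47 sites and 72 IgG cDNAs at 25 sites, a log2 ratio of 0.16 (-0.26 to 0.61). Its first exon had 13 PDCD4 cDNAs and no IgG site, and its first intron 10 PDCD4 and 24 IgG cDNAs. None of its canonical exon windows occur elsewhere in the genome, and of all its sites 1 IgG site, with 3 cDNAs, lay at sequence found elsewhere.

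HNRNPA1 (chromosome 12, 54280193 to 54287088, plus strand, ENSG00000135486), the best known splicing repressor of the family, had the fewest cDNAs, 22 at 10 PDCD4 sites and 13 at 5 IgG sites, with a log2 ratio of 0.15 (-0.86 to 1.30). Per exon length of all transcripts merged, it was also the lowest in both lists, at 3.29 and 1.94 exonic cDNAs per kb. For HNRNPA1, 42.8% of the exon windows occur elsewhere in the genome, and 18 of its 22 PDCD4 cDNAs but 0 of its 13 IgG cDNAs lay at such sequence. Without those sites its log2 ratio was -2.05, so the direction for HNRNPA1 is not settled. Every HNRNPA1 site also carried the label RP11-968A15.8, an overlapping annotation. Sites labelled as HNRNPA1 pseudogenes added 9 PDCD4 and 2 IgG cDNAs, which were not counted for the gene.

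HNRNPC, which binds runs of U in nascent RNA, had the lowest log2 ratio of the 10 genes. The gene (chromosome 14, 21209136 to 21269494, minus strand, ENSG00000092199) held 98 PDCD4 cDNAs at 48 sites and 104 IgG cDNAs at 41 sites, a log2 ratio of -0.65 (-1.07 to -0.24), which was higher than in 28.1% of the genes tested. Its coding sequence held 6 cDNAs in each list. The difference was greatest in its first intron, with 6 PDCD4 and 34 IgG cDNAs, while the longer intron 2 held 36 and 26. For HNRNPC, 46.2% of the exon windows occur elsewhere in the genome, with 21 PDCD4 and 26 IgG cDNAs at such sequence.

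Over the 10 genes together, the coding sequence was the region in which the lists differed most. It held 425 PDCD4 cDNAs, 35.6% of their total (32.8 to 38.4), and 90 IgG cDNAs, 14.8% (12.1 to 17.9), a log2 ratio of 1.66 (1.34 to 2.02). The 3′UTR held 367 and 201 cDNAs, a log2 ratio of 0.30 (0.05 to 0.56), and in the 5′UTR 129 and 66. Introns held 162 PDCD4 and 170 IgG cDNAs, 13.6% and 28.01%, a log2 ratio of -0.64 (-0.96 to -0.32). The coding share was higher with PDCD4 in 9 of the 10 genes, with intervals that did not overlap in 4, and the intronic share was lower in 8, equal in HNRNPA1 and higher in HNRNPU. Such counts were not made over all genes, so how many of all genes share these directions is not known here.

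The same direction held for the whole lists. There, 22.2% of PDCD4 cDNAs and 10.3% of IgG cDNAs were coding, a log2 ratio of 1.11, and 47.8% and 65.0% were intronic, a log2 ratio of -0.44. Without HNRNPU the coding log2 ratio of the other 9 genes was 1.04 (0.67 to 1.44), near that of the whole lists, and the intronic one was -0.70 (-1.02 to -0.38). The hnRNP genes had fewer intronic cDNAs than the whole list in both immunoprecipitations and more in 5′UTRs, 10.8% against 2.45% with PDCD4 and 10.9% against 1.501% with IgG. In 17 other hnRNP genes, 3.91% of PDCD4 and 6.10% of IgG cDNAs were in 5′UTRs, and in the SR genes 4.42% and 5.65%. Part of the 5′UTR cDNAs of the 10 genes lay in introns of the canonical transcript. In HNRNPU, for example, all 18 IgG cDNAs of the 5′UTR lay in intron 3. The size of the coding share depends on the order in which overlapping annotations are read: with UTRs taken before coding sequence it was 13.4% with PDCD4 and 5.93% with IgG. The intronic share depends on the annotation too, because exons of any transcript count as exonic. With a single transcript per gene it was 31.2% with PDCD4 and 52.9% with IgG in the hnRNP genes. The whole lists were not recomputed in that way.

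**Figure D4:**
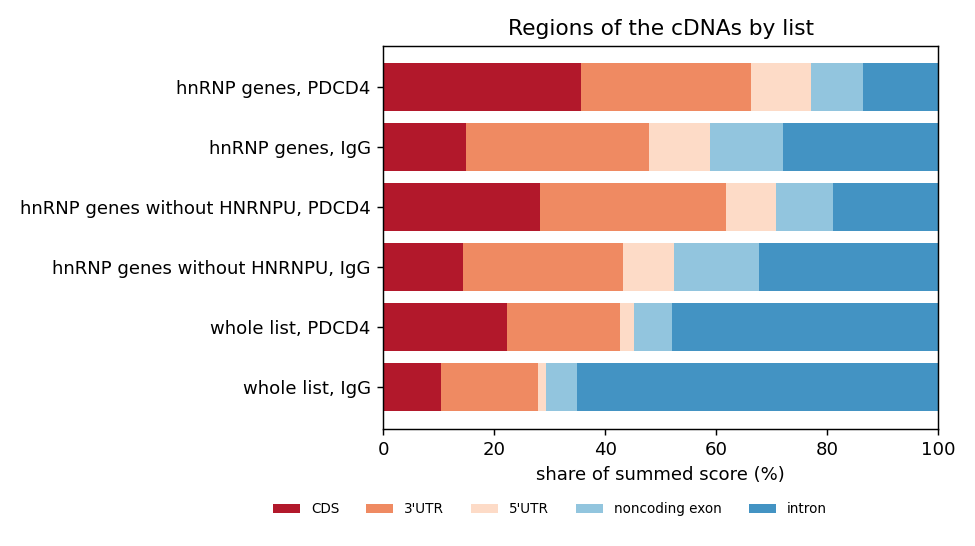
Share of the summed score (x axis, %) in coding sequence (CDS), 3′UTR, 5′UTR, noncoding exons and introns, for the 10 hnRNP genes, for these without HNRNPU and for the whole list, each in the PDCD4 and the IgG list. The coding part of the bar was wider with PDCD4 in each pair (35.6% against 14.8% for the hnRNP genes) and the intronic part narrower.

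By position in the canonical transcript, the first exons of the hnRNP genes held 123 PDCD4 and 17 IgG cDNAs, a log2 ratio of 2.22 (1.55 to 3.11). PDCD4 sites lay in the first exon of 5 genes and IgG sites in that of 4. HNRNPU supplied 62 of the PDCD4 cDNAs in first exons and HNRNPD 35, and without HNRNPU 61 PDCD4 and 14 IgG cDNAs remained. Internal exons held 330 and 71 cDNAs, a log2 ratio of 1.63 (1.27 to 2.04), and last exons, which carry most of the 3′UTR, 369 and 198, a log2 ratio of 0.33 (0.08 to 0.59). Without HNRNPU, internal exons held 196 and 59 cDNAs and last exons 288 and 165. Introns of the canonical transcript held 324 PDCD4 and 306 IgG cDNAs, part of which count above as exons of other transcripts. These introns were split by position. The first introns held 51 PDCD4 and 87 IgG cDNAs, a log2 ratio of -1.33 (-1.87 to -0.82), and the other introns 273 and 219, a log2 ratio of -0.25 (-0.51 to 0.01). HNRNPC with 6 and 34 cDNAs, HNRNPA2B1 with 10 and 24 and HNRNPF with 8 and 17 supplied most of the IgG cDNAs in the first introns.

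**Figure D5:**
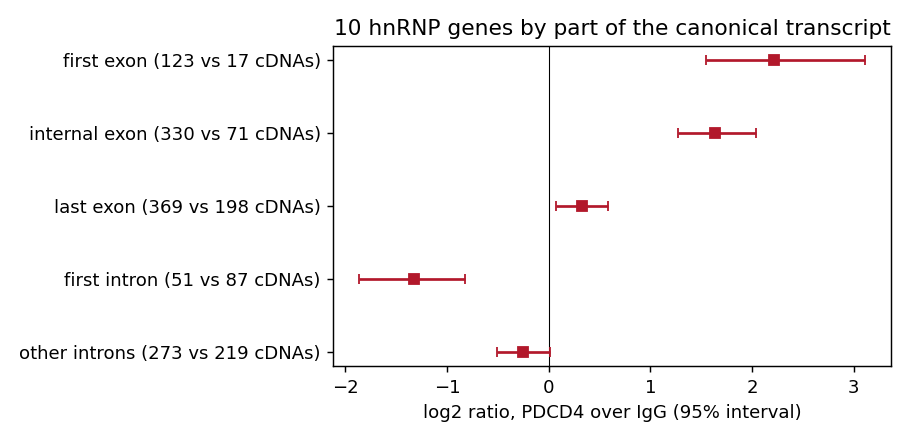
Log2 ratio of cDNA shares, PDCD4 over IgG (x axis), summed over the 10 hnRNP genes for each part of the canonical transcript; bars are 95% counting intervals and the counts stand beside the labels. The ratio was 2.22 in the first exons, where 5 genes had a PDCD4 site, 1.63 in internal exons and 0.33 in the last exons. It was lowest, -1.33, in the first introns.

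Within the exons that are followed by an intron, sites of the hnRNP genes were nearly absent from the 3′ end. The last 60 nt of these exons held 1 of 159 PDCD4 sites (0.629%) and 3 of 33 IgG sites (9.09%), although 43.0% of the exon length lies there. The single PDCD4 site was in HNRNPM, 2 nt from the end of exon 14. The HNRNPU site of score 10 illustrates the pattern, lying 80 nt before the end of exon 12. The stretch was sparse in all protein-coding genes too, with 4.85% of 29026 PDCD4 sites and 7.18% of 9238 IgG sites where 35.8% of the exon length lies, and the cause was not tested.

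The nucleotide at the site was T for 56.0% of the PDCD4 sites in the hnRNP genes and 57.6% of their IgG sites, beside 46.7% and 51.6% over the whole lists. A run of 5 T (TTTTT, transcript strand only) stood in the 30-nt window of 31.5% of the PDCD4 sites (27.2 to 35.9) and 34.9% of the IgG sites (28.8 to 41.5), more often than in the whole lists (17.0% and 20.3%). The T runs lay mostly outside the coding sequence. In 3′UTRs of the hnRNP genes 46.4% of PDCD4 windows and 54.5% of IgG windows held one, and in introns 44.6% and 33.8%. In coding sequence 5.41% of PDCD4 windows, among them that of the HNRNPU site of score 10, and 0 of 32 IgG windows did. Among the genes, 8 of 10 PDCD4 windows in HNRNPA1 and 64% in HNRNPL held a T run, against 20.4% in HNRNPU and 0 of 22 in HNRNPF. Over the 10 genes the counting intervals of the PDCD4 and IgG shares overlapped. These intervals treat sites as independent, although neighbouring sites, as in the T run of HNRNPL, share most of their window. They can therefore be too narrow.

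Few nucleotides were listed with both antibodies. Of the 721 positions in both lists, 8 lay in the hnRNP genes, 4 in the T run of HNRNPL, 2 in the 3′UTR of HNRNPK and 1 each in HNRNPC and HNRNPD, with scores from 1 to 5. According to the methods, positions cross-linked with IgG were subtracted on the PDCD4 side ahead of peak calling, a step that can itself lower this number. A site with a score greater than 5 made up 2.17% of the PDCD4 sites in the hnRNP genes and 0.437% of their IgG sites, beside 1.48% and 0.690% in the whole lists.

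The other genes of the family and the SR proteins, the second large class of splicing regulators, were counted in the same way. In 17 other hnRNP genes, 997 PDCD4 and 574 IgG cDNAs gave a log2 ratio of 0.23 (0.08 to 0.38), and 8 of the 16 with a site were above 0. The median of these 16 genes was 0.17, and HNRNPH2 had no listed site. Among those with at least 50 cDNAs over both lists, high ratios were those of HNRNPAB (1.54) and HNRNPH3 (0.92), and the lowest were those of SYNCRIP (-2.15), HNRNPUL1 (-0.76) and PCBP2 (-0.60). HNRNPU was thus above every other gene of both hnRNP lists with at least 50 cDNAs, although its interval overlapped that of HNRNPAB (0.97 to 2.24). In 13 SR genes, 498 and 354 cDNAs gave a log2 ratio of -0.08 (-0.27 to 0.13). Those with at least 50 cDNAs ran from SRSF6 (2.84), SRSF9 (1.05) and SRSF10 (0.28) down to TRA2B (-1.15), SRSF5 (-1.17) and SRSF3 (-1.68). Of the 13 SR genes, 7 were above 0, and their coding log2 ratio of 0.98 (0.43 to 1.61) was close to the 0.97 (0.68 to 1.29) of the other hnRNP genes.

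As a check of the label, the epithelial genes KRT5, KRT17 and TP63 had 352, 37 and 28 PDCD4 cDNAs and 74, 18 and 15 IgG cDNAs, while KRT14 had 3 and 0. The nuclear noncoding RNAs NEAT1 and MALAT1, at log2 ratios of -1.80 and -1.78, lay below every hnRNP gene examined here except SYNCRIP.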

How the data were processed

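iCLIP was performed in MCF10A cells with PDCD4 antibody (2 replicates) or IgG (2 replicates). The authors processed reads with iCount against Ensembl release 88, subtracted IgG crosslink sites, merged replicates and describe a filter on scores greater than 5. The deposited lists hold scores from 1 upwards, and the value is a raw cDNA count per site, not normalized. Mapping settings are not given in the sources used here.

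Here every listed site was counted for each gene in its label. Log2 ratios use a pseudocount of 1 and the list totals (409308 and 276139). Intervals are exact (Poisson, Clopper-Pearson, conditional binomial). Regions came from GENCODE 44 (same build, GRCh38), coding sequence taking precedence over UTRs (3′ before 5′), these over noncoding exons and those over introns. Each site's next 30 nt were searched in the genome on both strands. The members and lists were chosen with earlier results of these data known. Named were the 10 genes, the 3 highest and 3 lowest genes with at least 50 cDNAs of each other list, NEAT1, MALAT1, 4 epithelial markers, and sites by score. A gene that this rule would name is not reported here. HNRNPH2 and the HNRNPA1 pseudogenes were named after their values were seen. Calculations were tested on simulated data. Software was Python 3.11.15 with scipy 1.17.1, pandas 2.3.3, numpy 2.4.6 and, for plots, matplotlib 3.10.9.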

Additional observations from a re-analysis of the deposited data

How the results depend on the processing

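No paired analysis was possible because each list merges its replicates. Of 86 alternative values for the group, 62 stayed within the counting interval or, for numbers of genes, which have none, within 1.5 times the reported number. The median log2 ratio has no counting interval of its own. It was held against the medians of the single-gene bounds, -0.35 to 0.96, a wide range in which every alternative median lay. With scores greater than 5 only, the summed log2 ratio was 1.32, 4 genes lay above 0 and 2 at 1 or more, and the PDCD4 and IgG shares were 80.6% and 0% coding, 0% and 100% intronic, and 19.4% and 0% 3′UTR, from 10 sites and 1 site. Counting sites gave a coding PDCD4 share of 32.1%, and leaving out repeated sequence a 3′UTR PDCD4 share of 26.5%. One transcript per gene raised the intronic shares to 31.2% and 52.9%. UTRs before coding sequence gave coding shares of 13.4% and 5.93% and 3′UTR shares of 52.6% and 42.0%. Without HNRNPU, chosen after seeing the data, the log2 ratio was 0.069, 0 genes reached 1, the coding PDCD4 share was 28.2%, and the PDCD4 and IgG shares were 19.0% and 32.4% intronic and 33.5% and 29.0% 3′UTR. Of 94 values for single genes, 88 stayed within their interval. The number of genes above 0 was 6 without repeated sequence and 6 of 9 without sites of several labels. HNRNPU ranged from 1.57 to 3.21, and HNRNPD, HNRNPM, HNRNPC, HNRNPA2B1, HNRNPF and HNRNPH1 kept their sign wherever a value was obtained, although the intervals of HNRNPM, HNRNPD and HNRNPC held 0 by number of sites, and that of HNRNPM also with scores of at least 2 and without repeated sequence. HNRNPA1 (-2.05 to 0.36), HNRNPK (-0.48 to 0.85) and HNRNPL (-0.13 to 0.85) did not. HNRNPA1 has no value without sites of several labels, and 5 genes have none at scores greater than 5.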
